A study of Mus musculus with 12 samples.

Results

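The neurotrophic factors and receptors described here were 9 genes, taken by gene name from a deposited expression table of 55862 genes, and all 9 had a row in it. They comprised 5 secreted ligands (Bdnf, Ntf3, Gdnf, Cntf and Lif) and 4 receptors (Ntrk2, Ntrk3, Ngfr and Gfra1). They were chosen by their function and name, not by a value. The RNA came from brain cells of mice labelled C57BL/6, which the study's methods give as C57BL/6J for both NPC groups, with 12 samples in 4 groups of 3. ASTs were primary astrocytes of the cerebral cortex of newborn pups, grown as a monolayer in medium with serum and labelled as the day 0 negative control. A-iSCs were ASTs that had been kept for 5 days on agarose, where they formed floating spheres. P56-NPCs were suspensions dissociated from the subependymal zone of adults (postnatal day 56). P0-NPCs were made in a like way from the newborn hippocampus (postnatal day 0). Both served as positive controls in the study. No sort or marker selection of the NPC suspensions is described, so they may hold every cell type of the dissected region. The labels name no transgene and no added factor in any group.

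Neurotrophic factors are secreted proteins that keep neurons alive and guide the growth of their processes, and glia are among their sources. Brain-derived neurotrophic factor (Bdnf) signals through the tyrosine kinase TrkB (Ntrk2) and neurotrophin-3 (Ntf3) through TrkC (Ntrk3), while the neurotrophin receptor Ngfr binds all neurotrophins with low affinity. Glial cell line-derived neurotrophic factor (Gdnf) binds the membrane-anchored co-receptor Gfra1, which hands the signal to the kinase Ret. Ciliary neurotrophic factor (Cntf) and leukemia inhibitory factor (Lif) are cytokines of the interleukin-6 family that share the receptor chains Lifr and Il6st and activate Jak kinases and Stat3.

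Expression was given in FPKM, the number of fragments on a gene corrected for its length in kilobases and for library size. Each pair of groups was compared by limma on the log2(FPKM + 1) scale, leaving out genes with a mean under 1 FPKM in both. Calls were made where the p, adjusted over all genes tested by the Benjamini-Hochberg method, was under 0.05. A fold change on this scale understates the change of a gene with low values, so the ratio of mean FPKM or the limma-voom value is given beside the main differences. Between 17077780 and 24452419 fragments were counted on genes per sample, and a floor of 3 fragments on a 1 kilobase gene was worth 0.103 to 0.187 FPKM, counting error alone being considered. The labels do not say whether the samples of a group came from separate cultures or animals, so the p-values measure only the spread between these samples. In bulk RNA, fewer cells that express a gene and less RNA of it per cell cannot be told apart.

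Some samples stood apart from their group. Across protein-coding genes with a mean of at least 5 FPKM, AST replicate 2 departed from the other AST samples by a median of 0.50 (log2) for genes under 1500 bases and by -0.18 for genes over 6000 bases. A-iSC replicate 3 departed the other way, by -0.35 for short and 0.24 for long genes, and A-iSC replicate 1 by 0.26 and -0.11. Mitochondrial genes took 16.5 to 17.6% of the fragments in P56-NPCs and 2.94 to 7.03% in the other samples. The summed level of 6 astrocyte markers was 126 to 146 FPKM in ASTs, 900 to 1974 FPKM in A-iSCs, 1252 to 1335 FPKM in P56-NPCs and 151 to 208 FPKM in P0-NPCs. Most of the A-iSC sum was Gfap, with a mean of 970 FPKM beside 211 FPKM in P56-NPCs. The means of Aqp4 (92.4 and 61.8 FPKM) and Aldh1l1 (70.6 and 49.0 FPKM) were also higher in A-iSCs, while those of Slc1a2 (23.0 and 519 FPKM), Slc1a3 (125 and 359 FPKM) and Gja1 (28.3 and 84.6 FPKM) were lower in A-iSCs than in P56-NPCs. All 6 astrocyte markers, Gfap, Aqp4, Aldh1l1, Slc1a3, Slc1a2 and Gja1, had a mean of at least 1 FPKM in ASTs.

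From ASTs to A-iSCs, 4 ligands fell and 2 receptors rose among the members that passed the filter, and a further receptor under the filter, Ntrk3, was called higher with limma-voom alone. Bdnf, Ntf3, Gdnf and Lif were lower in every A-iSC sample than in every AST sample, and so was the receptor Ngfr. Ntrk2, Ntrk3 and Gfra1 were higher in every A-iSC sample. Of the 7 members that passed the filter, 2 were called higher, where 25.2% of all 14087 genes tested were, and 5 were called lower, where 29.6% were. Cntf and Ntrk3 had means under 1 FPKM in both groups and were not tested in this way. Ntf3 and Gdnf had A-iSC means under 1 FPKM and passed the filter through ASTs alone, so they could only be called lower. The values of Cntf overlapped between ASTs and A-iSCs. The median log2 fold change of the members tested was -1.35, beside -0.06 over all genes tested, and it was -1.62 over the 4 ligands and 1.23 over the 3 receptors. Where library size alone set the scale, the share of all calls that were higher moved from 46.0% to 60.4% and the median of all genes from -0.06 to 0.13. The same count of members, 2 higher and 5 lower, was called, beside 31.9% and 20.9% of all genes tested.

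**Figure D1:**
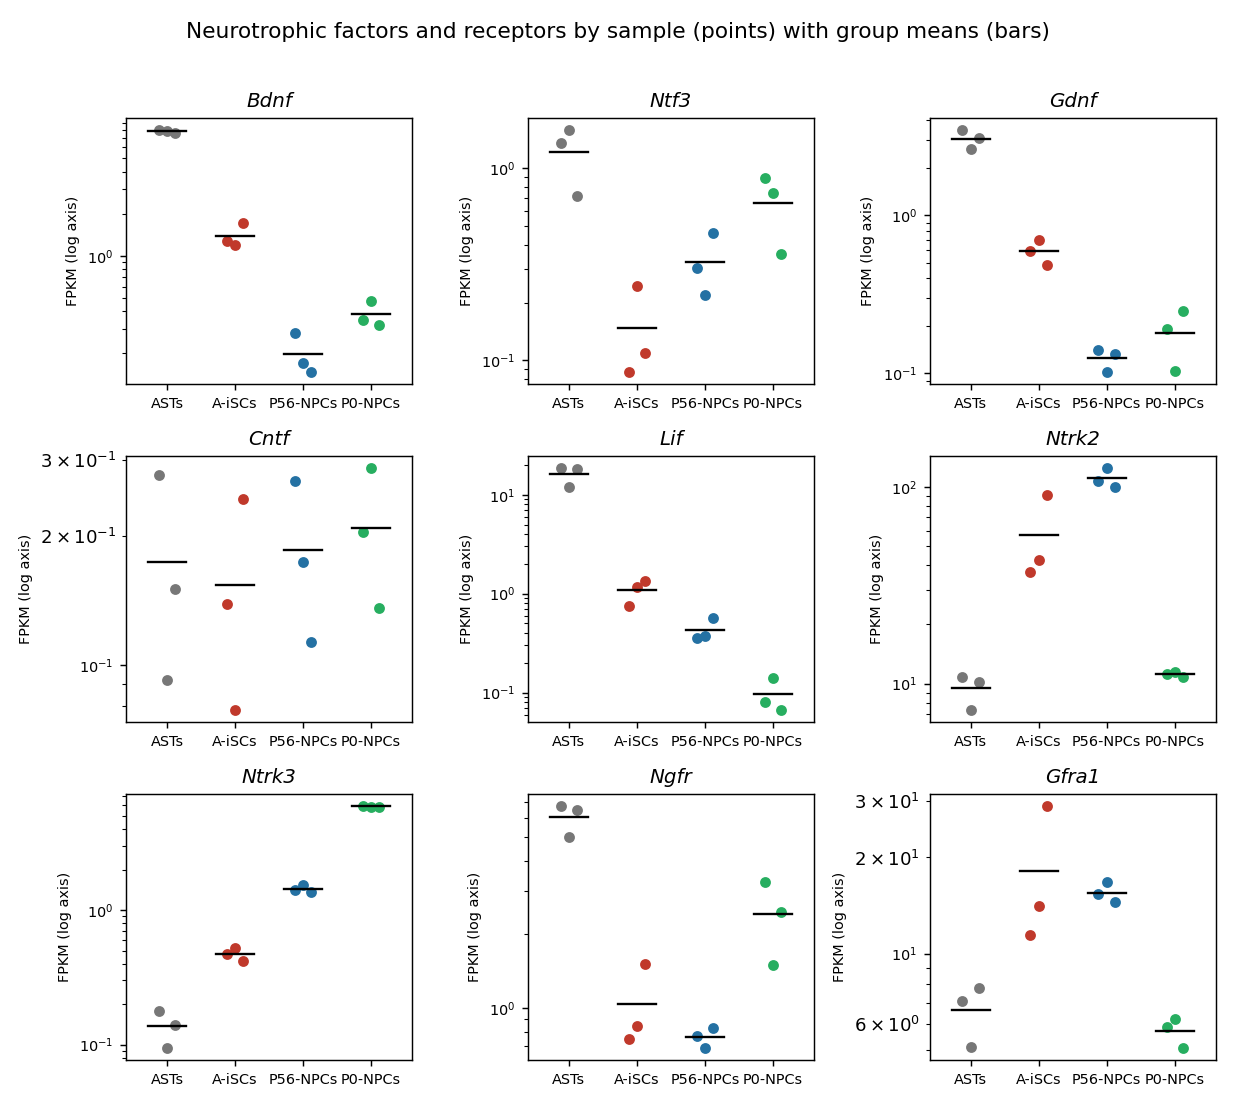
FPKM of each of the 9 members (1 panel each, log axis with its own range) in the 12 samples, by group on the x axis. Each point is a sample and each bar is the mean of its group. Bdnf, Gdnf and Lif are highest in ASTs, Ntrk2 runs from 7.35 FPKM in an AST sample to 125 FPKM in a P56-NPC sample, and Cntf stays under 0.3 FPKM in every sample.

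The DNA upstream of the start site is shown for 5 of the members that moved between ASTs and A-iSCs: the ligands Bdnf, Gdnf and Lif and the receptor Ngfr, which fell, and the receptor Ntrk2, which rose. Sequences are from RefSeq on GRCm38.p6, which matched 8 of the 9 members, and cover the 200 bases before a start site without the bases that lie in annotated exons. Each is written 5′ to 3′ on the strand of the gene. Capitals mark the letters of a motif that was searched for on both strands: the AP-1 site TGACTCA, the core of the CREB site TGACG, and the TATA box TATAAA.
Bdnf, the third of 7 start sites, chr2:109692236-109692435, + strand: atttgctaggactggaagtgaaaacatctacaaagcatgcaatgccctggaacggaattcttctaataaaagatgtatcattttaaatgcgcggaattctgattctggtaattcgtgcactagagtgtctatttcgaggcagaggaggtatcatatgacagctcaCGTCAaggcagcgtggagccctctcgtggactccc
Gdnf, the first of 2 start sites, chr15:7809848-7810047, + strand: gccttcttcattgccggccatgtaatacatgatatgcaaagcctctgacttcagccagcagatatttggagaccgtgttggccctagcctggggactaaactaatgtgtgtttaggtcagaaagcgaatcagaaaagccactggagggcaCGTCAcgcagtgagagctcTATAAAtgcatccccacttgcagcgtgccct
Lif, chr11:4257368-4257556, + strand: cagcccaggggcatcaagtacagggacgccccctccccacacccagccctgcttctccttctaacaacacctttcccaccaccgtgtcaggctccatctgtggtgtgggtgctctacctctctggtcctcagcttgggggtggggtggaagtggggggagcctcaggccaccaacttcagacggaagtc
Ngfr, chr11:95587736-95587898, - strand: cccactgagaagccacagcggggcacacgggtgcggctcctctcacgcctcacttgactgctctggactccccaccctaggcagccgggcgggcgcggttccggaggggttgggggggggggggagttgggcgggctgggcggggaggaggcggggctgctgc
Ntrk2, chr13:58806369-58806568, + strand: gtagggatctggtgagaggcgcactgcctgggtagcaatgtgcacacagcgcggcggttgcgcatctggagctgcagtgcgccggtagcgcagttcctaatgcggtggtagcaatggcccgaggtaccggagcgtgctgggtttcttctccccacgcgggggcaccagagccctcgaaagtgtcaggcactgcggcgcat
Of 32851 promoters searched over the same 200 bases, 3.66% held the AP-1 site, 15.7% the CREB core and 9.96% the TATA box. Bdnf had the CREB core before 1 of its 7 start sites, the third, and no other motif. Gdnf had both the CREB core and the TATA box before its first start site, and in both genes the core was read as CGTCA on the gene's strand. None of the motifs was found in the windows of Lif, Ngfr and Ntrk2 shown, nor in those of Ntf3, Cntf and Gfra1, of which 34 and 62 bases were left for the first window of Ntf3 and for Gfra1. A match is a description of the letters in the window and does not show that a factor binds there.

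Bdnf (ENSMUSG00000048482), which supports neuronal survival and synaptic plasticity, lies on chr2:109674700-109727007 of GRCm38, on the + strand. Its level was 7.95, 7.91 and 7.58 FPKM in the 3 AST samples and 1.27, 1.20 and 1.72 FPKM in the 3 A-iSC samples. It was 0.278, 0.170 and 0.146 FPKM in P56-NPCs and 0.345, 0.475 and 0.321 FPKM in P0-NPCs. No pair of groups overlapped, and the AST samples lay closer together than those of any other group in relation to their mean, 7.81 ± 0.205 FPKM (SD, n = 3). The mean was 5.60 times as high in ASTs as in A-iSCs, and A-iSCs over ASTs gave a log2 fold change of -1.88 (SE 0.12, limma adjusted p = 1.94e-05). It was 39.4 times as high in ASTs as in P56-NPCs and 20.5 times as high as in P0-NPCs, with log2 fold changes of -2.88 and -2.68 (limma adjusted p = 1.02e-07 and 9.9e-08). A-iSCs kept more Bdnf RNA than either NPC group, by 0.995 over P56-NPCs and 0.79 over P0-NPCs on the log2 scale (limma adjusted p = 0.000398 and 0.000908), the ratios of the means being 7.04 and 3.67. On the fragments with limma-voom, a linear model on counts weighted by their precision, the differences of NPCs from ASTs reached -5.31 (P56-NPCs) and -4.36 (P0-NPCs), and those of A-iSCs from NPCs 2.82 and 1.87 in the same order. Of the exon bases of Bdnf, 14.4% are shared with the antisense gene Gm45346, and the strand setting of the counting is not given in the sources used here, so reads there cannot be assigned.

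Gdnf (ENSMUSG00000022144; chr15:7810846-7837575, + strand) encodes the factor known for its support of dopaminergic and motor neurons. It was measured at 3.46, 2.62 and 3.11 FPKM in ASTs and at 0.594, 0.698 and 0.487 FPKM in A-iSCs. In P56-NPCs it stood at 0.141, 0.102 and 0.132 FPKM and in P0-NPCs at 0.190, 0.103 and 0.247 FPKM. All AST samples lay above all A-iSC samples, which in turn lay above all NPC samples, while the NPC groups overlapped. ASTs had 5.16 times the mean of A-iSCs, and the log2 fold change of A-iSCs over ASTs was -1.35 (SE 0.12, limma adjusted p = 0.000112), or -2.36 with limma-voom. P56-NPCs differed from ASTs by -1.85 and P0-NPCs by -1.78 (limma adjusted p = 2.34e-06 and 2.5e-06), and by -4.52 and -4.13 with limma-voom, the AST mean being 24.5 and 17.0 times as high. Between A-iSCs and NPCs Gdnf stayed under the filter of 1 FPKM. In the limma-voom fit, which called 58.6% of genes tested in either direction against P56-NPCs and 63.5% against P0-NPCs, A-iSCs had Gdnf higher by 2.15 and by 1.77 (adjusted p = 0.000907 and 0.0029). The 6 to 25 fragments of Gdnf per NPC sample set the precision of those values.

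Lif (ENSMUSG00000034394; chr11:4257557-4272514, + strand), a cytokine that activates Stat3 and can drive precursors to an astrocyte fate, had the highest AST level of the 5 ligands in FPKM. Its level was 18.7, 12.01 and 18.2 FPKM in ASTs and 0.753, 1.17 and 1.34 FPKM in A-iSCs. It was 0.358, 0.372 and 0.572 FPKM in P56-NPCs and 0.0804, 0.142 and 0.0668 FPKM in P0-NPCs. The groups followed each other without overlap, from ASTs at the top through A-iSCs and P56-NPCs down to P0-NPCs, and AST replicate 2 was the lowest of the ASTs. The AST mean was 15.0 times that of A-iSCs, with a log2 fold change of A-iSCs over ASTs of -3.04 (SE 0.19, limma adjusted p = 2.16e-05). Over ASTs, P56-NPCs were at -3.57 and P0-NPCs at -3.96 (limma adjusted p = 1.3e-06 and 2.86e-07), and the AST mean was 37.6 times the P56-NPC mean and 169 times the P0-NPC mean. With limma-voom the P0-NPC difference was -7.36, resting on 8 to 18 fragments per P0-NPC sample. A-iSCs had 2.50 times the mean of P56-NPCs, a log2 fold change of 0.53 (limma adjusted p = 0.0146) that was no longer called without P56-NPC replicate 1 (0.50, adjusted p = 0.0534) or without A-iSC replicate 2 (0.50, adjusted p = 0.0560). Over P0-NPCs the A-iSC difference was 0.92 (limma adjusted p = 0.00064), or 3.48 with limma-voom, and the ratio of the means was 11.3.

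Ntf3 (ENSMUSG00000049107; chr6:126101412-126166910, - strand) encodes neurotrophin-3, which acts on proprioceptive and other sensory neurons and on precursors. The AST samples held 1.36, 1.58 and 0.723 FPKM and the A-iSC samples 0.0868, 0.245 and 0.109 FPKM. The P56-NPC samples held 0.302, 0.218 and 0.460 FPKM and the P0-NPC samples 0.893, 0.741 and 0.360 FPKM. A-iSCs were at 3 to 10 fragments per sample, close to the floor, and all of them lay below all ASTs and all P0-NPCs. Unlike Bdnf, Gdnf and Lif, Ntf3 was lowest in A-iSCs, although its A-iSC and P56-NPC values overlapped. The AST mean was 8.30 times the A-iSC mean, with a log2 fold change of A-iSCs over ASTs of -0.93 (SE 0.17, limma adjusted p = 0.00316), or -3.002 with limma-voom. P56-NPCs were below ASTs by -0.73 (limma adjusted p = 0.00500), or -1.83 with limma-voom. P0-NPCs overlapped with ASTs, and their difference of -0.41 (SE 0.18) did not pass (limma adjusted p = 0.0733). Without AST replicate 3, the lowest of the ASTs, that difference was -0.58 (adjusted p = 0.0137). A-iSCs were below P0-NPCs by -2.09 with limma-voom (adjusted p = 0.00882), and the comparison with P56-NPCs was under the filters of both tests.

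Cntf (ENSMUSG00000079415; chr19:12763660-12765632, - strand), known as a factor of astrocytes and Schwann cells, was near the limit of detection in every group. It had 0.278, 0.0919 and 0.151 FPKM in ASTs and 0.139, 0.0784 and 0.243 FPKM in A-iSCs. P56-NPCs had 0.268, 0.174 and 0.113 FPKM and P0-NPCs 0.204, 0.288 and 0.135 FPKM. These were 2 to 9 fragments per sample, and 3 fragments of Cntf correspond to 0.096 to 0.174 FPKM. All 4 groups overlapped, and Cntf was under the filters of both tests in every comparison, so a difference was not detectable at this depth. Of its 1073 exon bases, 847 (78.9%) are shared with Zfp91 on the same strand, so the counting of reads between these genes is uncertain.

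Ntrk2 (ENSMUSG00000055254; chr13:58806569-59133970, + strand) encodes TrkB, of which astrocytes are known to make mostly a form without the kinase domain. Its level was 10.8, 7.35 and 10.2 FPKM in ASTs and 36.9, 42.6 and 90.8 FPKM in A-iSCs. It was 107, 125 and 100.2 FPKM in P56-NPCs and 11.2, 11.5 and 10.8 FPKM in P0-NPCs. All A-iSC samples lay above all ASTs and P0-NPCs and below all P56-NPCs, and A-iSC replicate 3 was far above the other A-iSC samples. The mean of A-iSCs was 5.99 times that of ASTs, a log2 fold change of 2.37 (SE 0.33, limma adjusted p = 0.000835). Without A-iSC replicate 3 it was 1.97 (adjusted p = 0.000184), and without AST replicate 2 as well it was 1.82 (adjusted p = 7.75e-05). P56-NPCs were 11.7 times as high as ASTs, a log2 fold change of 3.43 (SE 0.15, limma adjusted p = 9.72e-07). P0-NPCs differed from ASTs by 0.23 (SE 0.13, limma adjusted p = 0.146), which did not pass, and by 0.50 (adjusted p = 0.0148) where library size alone set the scale. A-iSCs were above P0-NPCs by 2.13 (limma adjusted p = 0.000483) and below P56-NPCs by -1.06 (SE 0.32, limma adjusted p = 0.0239).

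Ntrk2 was lower in A-iSCs than in P56-NPCs in every sample and under all 13 alternatives, by -1.45 to -0.51, and the call was kept in 7 of the 13. With limma-voom the difference was -1.09 (adjusted p = 0.0158). With library size alone the difference was -0.51 (limma adjusted p = 0.184), and without the filter on low values its adjusted p was 0.0565. It was not called without P56-NPC replicate 1 (-1.08) or 2 (-0.97), or without A-iSC replicate 1 (-0.81) or 2 (-0.91), with adjusted p from 0.0613 to 0.0849, while without A-iSC replicate 3 it was -1.45 (adjusted p = 6.62e-05). The astrocyte marker sum of the A-iSC samples was 900, 1053 and 1974 FPKM in the order of replicates 1, 2 and 3 given above, so the sample with the most Ntrk2 also had the highest marker sum, most of which was Gfap. It was also the sample whose long genes were high, and the exons of Ntrk2 cover 19292 bases. Whether marker content or gene length had a part in the Ntrk2 value was not tested. GENCODE M21 lists 10 transcripts of Ntrk2, 7 of them protein-coding, and a value per gene does not tell the kinase form from the truncated forms.

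Ntrk3 (ENSMUSG00000059146; chr7:78175959-78738012, - strand) encodes TrkC, the receptor for neurotrophin-3 on neurons. It rose in steps across the groups, with 0.178, 0.0948 and 0.139 FPKM in ASTs and 0.474, 0.523 and 0.420 FPKM in A-iSCs. P56-NPCs followed with 1.41, 1.53 and 1.36 FPKM and P0-NPCs with 5.97, 5.83 and 5.89 FPKM. No pair of groups overlapped, and the P0-NPC mean, 5.90 ± 0.0728 FPKM (SD, n = 3), was 42.9 times the AST mean. The A-iSC mean was 3.44 times that of ASTs, and in the limma-voom fit, where 54.1% of genes tested were called in either direction, the log2 fold change was 1.83 (SE 0.24, adjusted p = 0.000319). Over ASTs, P56-NPCs were at 1.10 and P0-NPCs at 2.60 (limma adjusted p = 1.34e-05 and 9.43e-08), or at 3.44 and 5.48 with limma-voom. A-iSCs lay below P56-NPCs by -0.72 and below P0-NPCs by -2.23 (limma adjusted p = 0.000594 and 1.36e-06), or by -1.61 and -3.65 with limma-voom. The ligand and receptor of this pair thus had opposite orders of ASTs and A-iSCs, with Ntf3 higher in ASTs and Ntrk3 higher in A-iSCs. The sum of 6 neuron markers was 41.8 to 57.3 FPKM in ASTs, 45.0 to 57.6 FPKM in A-iSCs, 181 to 222 FPKM in P56-NPCs and 748 to 901 FPKM in P0-NPCs. Most of the sum was Tubb3 in ASTs, A-iSCs and P0-NPCs, with a mean of 634 FPKM in P0-NPCs and 76.8 FPKM in P56-NPCs. Dcx (3.34 and 88.1 FPKM) and Rbfox3 (8.29 and 17.6 FPKM) also had lower means in P56-NPCs than in P0-NPCs, as Ntrk3 did. The means of Snap25 (33.7 and 14.9 FPKM), Map2 (71.1 and 41.7 FPKM) and Syt1 (8.20 and 7.32 FPKM) were higher in P56-NPCs, with overlapping values for Syt1. In ASTs 4 of these markers and in A-iSCs 3 of them, Snap25, Rbfox3 and Syt1 in both, had means under 1 FPKM. The part of neurons in the NPC values of Ntrk3 was not tested.

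Ngfr (ENSMUSG00000000120; chr11:95568818-95587735, - strand), the low-affinity receptor that can also signal cell death, was the receptor that fell. Its level was 6.73, 4.99 and 6.44 FPKM in ASTs and 0.749, 0.842 and 1.52 FPKM in A-iSCs. It was 0.769, 0.687 and 0.828 FPKM in P56-NPCs and 3.27, 1.51 and 2.48 FPKM in P0-NPCs. ASTs stood above all other samples, A-iSCs overlapped with both NPC groups, and A-iSC replicate 3 was just above the lowest P0-NPC sample. ASTs had 5.85 times the A-iSC mean, with a log2 fold change of A-iSCs over ASTs of -1.80 (SE 0.18, limma adjusted p = 0.000145). P56-NPCs were at -1.99 and P0-NPCs at -1.07 over ASTs (limma adjusted p = 3e-06 and 0.00126), the AST mean being 7.95 and 2.50 times as high. A-iSCs and P56-NPCs differed by 0.19 (SE 0.16, limma adjusted p = 0.325), which did not pass, though with library size alone the difference was 0.43 (adjusted p = 0.0446). A-iSCs were below P0-NPCs by -0.73 (SE 0.22, limma adjusted p = 0.0211), or -1.17 with limma-voom, and the P0-NPC mean was 2.34 times the A-iSC mean. That call was lost without the filter (adjusted p = 0.0609), without A-iSC replicate 1 (-0.63) or 2 (-0.67) and without P0-NPC replicate 1 (-0.55) or 3 (-0.70), with adjusted p from 0.0640 to 0.0734 among those samples. Schwann and neural crest cells are a known source of Ngfr. Their 5 markers summed to 0.591 to 0.951 FPKM in ASTs, with Foxd3 at 0 and all 5 means under 1 FPKM, and to 12.3 to 14.7 FPKM in A-iSCs, where Ngfr was lower.

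Gfra1 (ENSMUSG00000025089; chr19:58235604-58455909, - strand), the co-receptor for GDNF, rose in A-iSCs with a wide spread. It had 7.11, 5.10 and 7.79 FPKM in ASTs and 11.4, 14.1 and 29.0 FPKM in A-iSCs. P56-NPCs had 15.3, 16.7 and 14.5 FPKM and P0-NPCs 5.88, 6.23 and 5.07 FPKM. A-iSCs lay above ASTs and P0-NPCs in every sample and on both sides of P56-NPCs, and A-iSC replicate 3 again stood highest. The A-iSC mean was 2.73 times the AST mean, a log2 fold change of 1.23 (SE 0.32, limma adjusted p = 0.0150). Without AST replicate 2 the difference was 1.08 and was not called (adjusted p = 0.0569), without A-iSC replicate 3 it was 0.86 (adjusted p = 0.00704), and without both it was 0.70 (adjusted p = 0.0034). P56-NPCs were above ASTs by 1.12 (SE 0.14, limma adjusted p = 0.000234). P0-NPCs differed from ASTs by -0.18 (SE 0.15, limma adjusted p = 0.298), which did not pass. Without AST replicate 2 that difference was -0.33 (adjusted p = 0.0167), and with library size alone it turned to 0.07 (adjusted p = 0.689). A-iSCs were above P0-NPCs by 1.41 (SE 0.30, limma adjusted p = 0.00403), and their difference from P56-NPCs was 0.11 (SE 0.31, limma adjusted p = 0.772), or -0.27 without A-iSC replicate 3 (adjusted p = 0.0581). The antisense gene Gm16277 covers 7.60% of the exon bases of Gfra1.

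**Figure D2:**
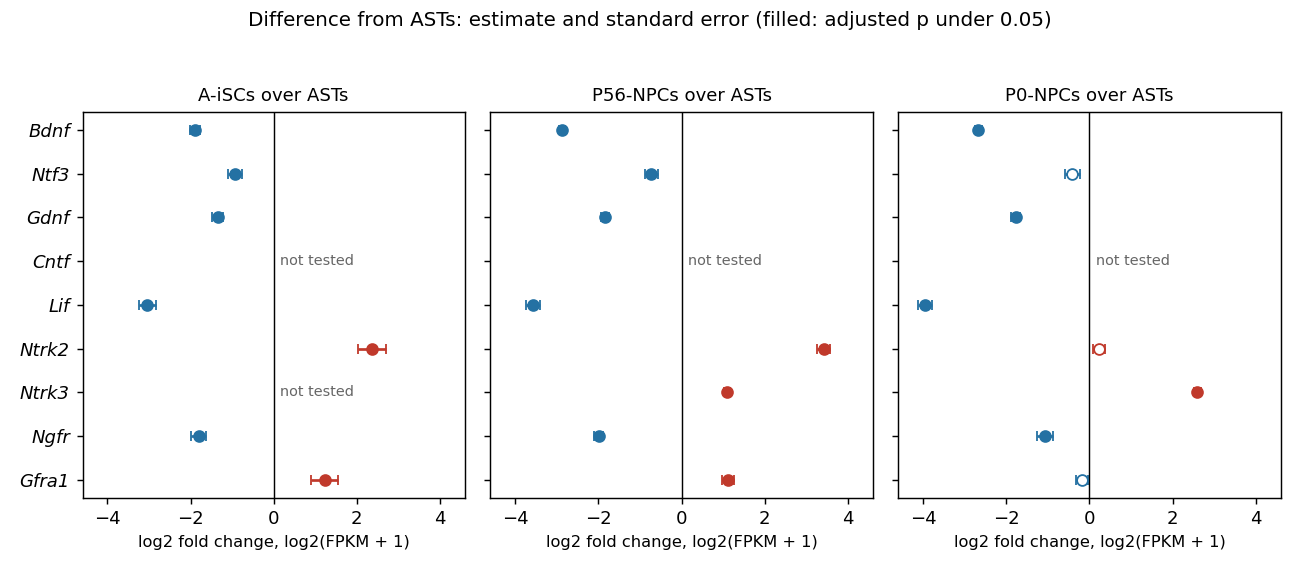
Log2 fold change over ASTs, on the log2(FPKM + 1) scale, for each member (rows) in A-iSCs, P56-NPCs and P0-NPCs (panels). Points are limma estimates, bars are 1 standard error on each side and filled points passed an adjusted p of 0.05. Lif is the lowest in each panel, Ntrk2 the highest in the first 2 and Ntrk3 in P0-NPCs (2.60), and the 3 panels share the same AST samples.

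Set against the NPC groups, the members gave a different picture in each comparison. All comparisons with ASTs share the same 3 AST samples, so their values stand side by side and are not independent of each other. In P56-NPCs over ASTs, 3 of the 8 members tested were called higher (39.1% of all genes tested were) and 5 lower (39.8% were). The 3 were Ntrk2, Ntrk3 and Gfra1. In P0-NPCs over ASTs, 1 of 8 was called higher, Ntrk3 (38.1% of all genes were), and 4 lower, Bdnf, Gdnf, Lif and Ngfr (40.9% were), while Ntf3, Ntrk2 and Gfra1 were not called. With shares this large over all genes, the number of members called is not a result about them. The ligands that were called were all lower in NPCs than in ASTs, under each of the 3 scalings tried. Each ligand tested had a mean under 1 FPKM in both NPC groups and passed the filter through ASTs alone. The filter thus fixed this direction in advance. Ntrk3 passed through the NPC groups alone in the same way.

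A-iSCs against P56-NPCs had 2 of 6 members called higher, Bdnf and Lif (30.1% of all genes tested were), and 2 lower, Ntrk2 and Ntrk3 (30.9% were). A-iSCs against P0-NPCs had 4 of 6 called higher, Bdnf, Lif, Ntrk2 and Gfra1 (31.5% were), and 2 lower, Ntrk3 and Ngfr (33.6% were). Between the NPC groups, P0-NPCs had higher Ntrk3 and Ngfr than P56-NPCs (2 of 4 members tested, 39.0% of all genes) and lower Ntrk2 and Gfra1 (2 of 4, 39.7% of all genes). The log2 fold changes of P0-NPCs over P56-NPCs were 1.504 for Ntrk3, 0.92 for Ngfr, -3.19 for Ntrk2 and -1.30 for Gfra1 (limma adjusted p = 7.35e-07, 0.00219, 9.47e-08 and 5.86e-06). The mean of Ntrk2 was 9.91 times as high in P56-NPCs as in P0-NPCs, and that of Ntrk3 was 4.12 times as high in P0-NPCs. The ligands were under 1 FPKM in both NPC groups. Bdnf and Lif thus passed the filter against NPCs through A-iSCs alone, which fixed the direction of those calls. With limma-voom, where 75.4% of genes tested were called in either direction, Lif was lower (-2.15, adjusted p = 0.000464) and Bdnf higher (0.95, adjusted p = 0.0184) in P0-NPCs than in P56-NPCs. Ntf3 (0.91, adjusted p = 0.103) and Gdnf (0.38, adjusted p = 0.463) did not pass.

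Library size alone as the scale moved the share of higher calls over all genes in most of these comparisons, and with it the median log2 fold change. For P56-NPCs over ASTs the share went from 49.6% to 37.7% and the median from -0.03 to -0.34. There 3 members were higher and 5 lower as before, beside 31.2% and 51.6% of all genes tested. For P0-NPCs over ASTs the share went from 48.2% to 59.4% and the median from -0.07 to 0.21. There 2 members were higher, Ntrk2 now among them, and 4 lower, beside 46.3% and 31.6%. For A-iSCs over P56-NPCs the share went from 49.4% to 74.5% and the median from 0.03 to 0.49. There 3 members were higher and 1 lower, beside 55.9% and 19.2%. For P0-NPCs over P56-NPCs the share went from 49.6% to 73.3% and the median from -0.01 to 0.53. There 2 members were higher and 2 lower as before, beside 61.2% and 22.3%. The changes of Ntrk2 and Ngfr between A-iSCs and P56-NPCs and of Gfra1 between P0-NPCs and ASTs under this scale, given above, went in the direction of the shift of the median.

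Among 43 other genes of the same pathways, 36 were tested between A-iSCs and ASTs, 13 were called higher (25.2% of all genes tested were), 13 lower (29.6% were) and 10 were not called, with a median of 0.03 beside -0.06 over all genes. The 11 further ligands tested split into 3 higher (Osm, Nrtn and Pspn) and 8 lower. With limma-voom, 12 were tested and 1 was higher, 8 were lower and 3 were not called, namely Nrtn, Pspn and Cdnf, and Pspn had 2 to 12 fragments per sample in these groups. The 7 further receptors split into 4 higher, 2 lower and 1 not called. Of 18 adaptors and signalling genes, 6 were higher, 3 lower and 9 not called. Ntf5, which encodes a further ligand of TrkB, had 1 to 7 fragments per sample in these groups and was not tested. Ret, the kinase that works with Gfra1, was at 0.803, 0.649 and 0.884 FPKM in ASTs and at 0.161, 0.180 and 0.314 FPKM in A-iSCs, under the filter and without overlap. The co-receptor Gfra1 was thus higher and Ret lower in each A-iSC sample than in each AST sample.

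Cntfr, Il6st and Lifr rose in A-iSCs, of which Il6st and Lifr are the chains shared by Cntf and Lif. Cntfr, the chain that binds CNTF, was at 1.33, 2.57 and 1.61 FPKM in ASTs and at 11.04, 10.7 and 7.01 FPKM in A-iSCs, which amounted to 1.90 on the log2 scale (SE 0.22, limma adjusted p = 0.000322) and to 5.22 times the mean. Il6st rose by 1.04 (SE 0.30, limma adjusted p = 0.0213) and Lifr by 0.42 (SE 0.13, limma adjusted p = 0.0281), while Sort1, a sorting receptor that partners with Ngfr, stood at 0.43 (SE 0.22, limma adjusted p = 0.136). The largest rises after Cntfr were those of Osmr, the oncostatin M receptor, at 1.59 (limma adjusted p = 0.000104) and its ligand Osm at 1.39 (limma adjusted p = 0.000779). Osm is known as a product of myeloid cells. Among the further genes that fell, Bex3, which encodes a protein that binds Ngfr, changed by -2.35 (limma adjusted p = 2.44e-05).

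**Figure D3:**
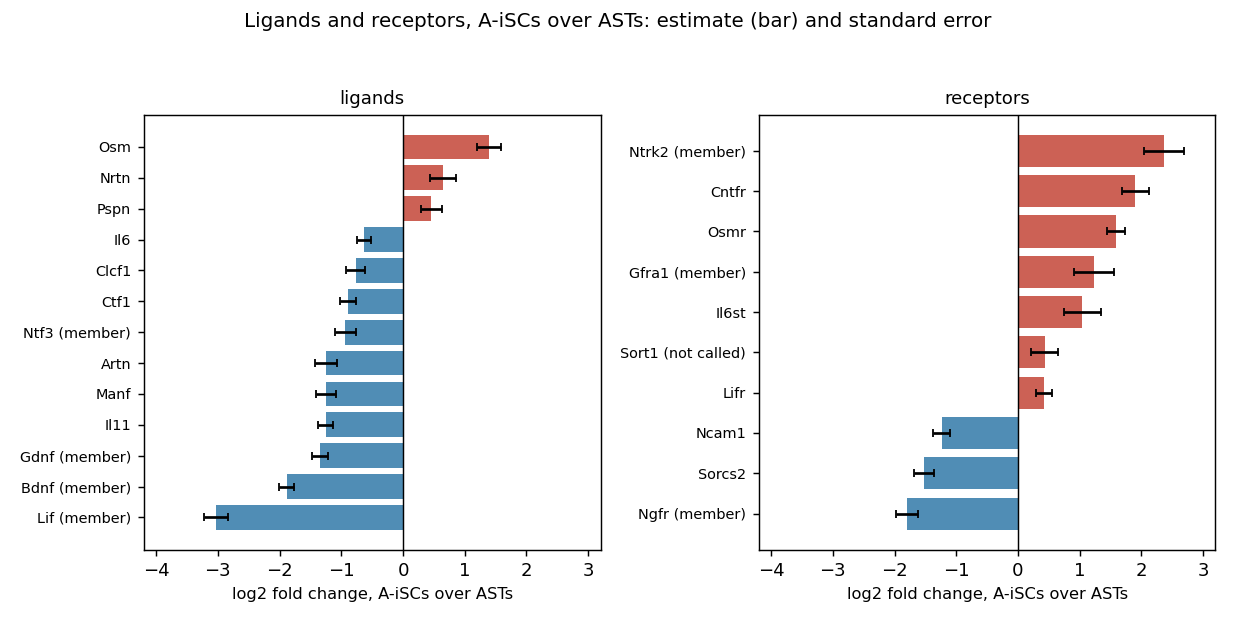
Log2 fold change of A-iSCs over ASTs for 13 ligands (left) and 10 receptors (right) among those tested, members and further genes of the pathways together. Bars are limma estimates on the log2(FPKM + 1) scale and lines are 1 standard error on each side. Of the genes shown, Lif (-3.04) fell most, Ntrk2 (2.37) and Cntfr (1.90) rose most, and Sort1 did not pass the test.

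Over ASTs, 8 of 9 further ligands tested were lower and 1 higher in P56-NPCs, where 39.8% of all genes tested were lower and 39.1% higher. In P0-NPCs 9 of 9 were lower, beside 40.9% of all genes. Several of these ligands had means under 1 FPKM in both NPC groups. Where tested, here and in the comparisons with A-iSCs below, they passed the filter through ASTs or A-iSCs alone, which fixed their direction. All further genes together gave 12 higher, 18 lower and 6 not called in P56-NPCs over ASTs and 12, 20 and 4 in P0-NPCs over ASTs. A-iSCs had 7 of 9 further ligands higher (30.1% of all genes) and 7 of 9 further receptors lower (30.9%) than P56-NPCs, and 9 of 9 ligands higher (31.5%) and 4 of 9 receptors lower (33.6%) than P0-NPCs. Over all further genes this was 17 higher, 12 lower and 7 not called against P56-NPCs and 18, 9 and 9 against P0-NPCs. P0-NPCs over P56-NPCs gave 12 higher, 13 lower and 5 not called among 30 tested, where 39.0% of all genes were higher and 39.7% lower. With library size alone as the scale these 30 genes gave 17 higher, 7 lower and 6 not called, beside 61.2% higher and 22.3% lower of all genes. Of 36 further genes tested on that scale, 15 were higher and 17 lower in P0-NPCs over ASTs, beside 46.3% higher and 31.6% lower of all genes. There were 21 higher and 10 lower in A-iSCs over P56-NPCs, beside 55.9% higher and 19.2% lower, and 16 and 12 in A-iSCs over P0-NPCs, beside 28.6% higher and 36.1% lower. Cntfr was highest in P56-NPCs, with 58.7 to 70.1 FPKM.

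Markers of other cell types moved with the groups. The 6 microglia markers summed to 96.5 to 127 FPKM in ASTs, with P2ry12 under 1 FPKM, and to 1084 to 1495 FPKM in A-iSCs, with all 6 at 1 FPKM or more. They summed to 435 to 458 FPKM in P56-NPCs and 63.6 to 73.5 FPKM in P0-NPCs. Most of the A-iSC sum was C1qa, with a mean of 1029 FPKM beside 213 FPKM in P56-NPCs. The means of Aif1 (41.6 and 7.35 FPKM), Cx3cr1 (61.1 and 40.7 FPKM) and Csf1r (87.5 and 76.2 FPKM) were also higher in A-iSCs, while those of P2ry12 (7.30 and 60.2 FPKM) and Tmem119 (16.8 and 52.2 FPKM) were lower in A-iSCs than in P56-NPCs. The summed level of 5 fibroblast markers was 147 to 198 FPKM in ASTs and 4.67 to 5.73 FPKM in A-iSCs, where Bdnf, Gdnf, Lif and Ngfr were also lower. Most of the sum was Col1a1, whose mean was 158 FPKM in ASTs against 2.98 FPKM in A-iSCs. The means of Col1a2 (15.03 and 1.03 FPKM), Col3a1 (2.39 and 0.985 FPKM) and Dcn (0.248 and 0.167 FPKM) were also higher in ASTs, and that of Lum (0.0374 and 0.128 FPKM) was lower. They were at 4.33 to 10.5 FPKM in P56-NPCs and 109 to 122 FPKM in P0-NPCs, where Bdnf, Gdnf and Lif were low. Oligodendrocyte lineage markers summed to 81.0 to 101 FPKM in ASTs, 105 to 128 FPKM in A-iSCs, 7955 to 9059 FPKM in P56-NPCs and 47.0 to 74.2 FPKM in P0-NPCs. Endothelial markers were at 4.70 to 6.65 FPKM in ASTs, with Cldn5 at 0, and at 1.62 to 2.62, 3.17 to 3.94 and 75.5 to 79.5 FPKM in A-iSCs, P56-NPCs and P0-NPCs. Mural markers were at 9.71 to 12.4, 3.08 to 4.23, 7.53 to 8.65 and 57.8 to 69.6 FPKM in the groups in the order used here (ASTs, then A-iSCs, P56-NPCs, P0-NPCs), with Higd1b at 0 in ASTs. Most of the AST sum was Pdgfrb, with a mean of 11.1 FPKM against 2.79 FPKM in A-iSCs. The means of Rgs5 (0.311 and 0.699 FPKM), Kcnj8 (0.0156 and 0.299 FPKM), Abcc9 (0.00689 and 0.0137 FPKM) and Higd1b (0 and 0.0166 FPKM) were higher in A-iSCs. Ependymal markers were at 42.8 to 51.2, 63.1 to 77.2, 262 to 356 and 80.0 to 103 FPKM in the group order given above. Markers of neural stem or progenitor cells were at 2597 to 3568, 1553 to 2083, 212 to 228 and 859 to 940 FPKM, with the highest sums in ASTs. Schwann and neural crest markers reached 96.8 to 106 FPKM in P56-NPCs, Sox10 among them, and 2.83 to 4.34 FPKM in P0-NPCs. The part of other cell types in the values of the members was not tested.

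**Figure D4:**
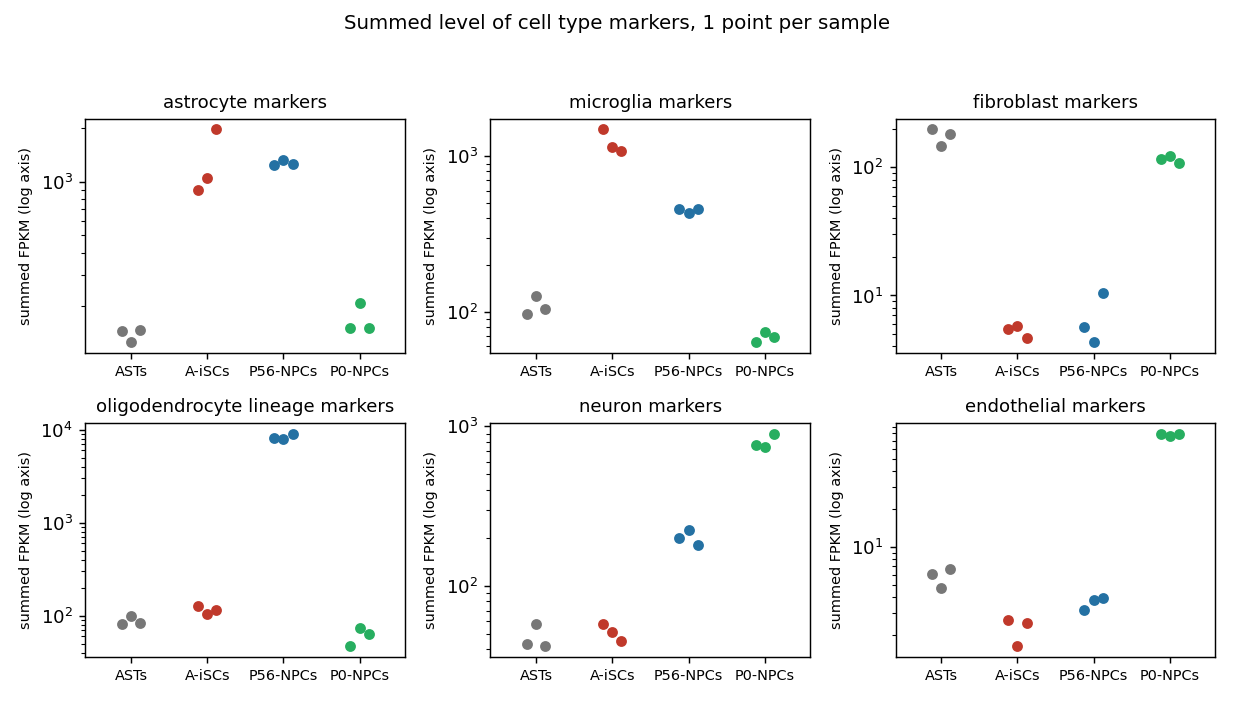
Summed FPKM (log axis, own range per panel) of 6 cell type marker lists in the 12 samples, by group on the x axis, with 1 point per sample. The microglia sum, mostly C1qa, is highest in A-iSCs (1084 to 1495 FPKM), fibroblast markers are low in A-iSCs and P56-NPCs, and the neuron and endothelial sums are highest in P0-NPCs.

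The genes with the most similar patterns were taken over the 12 samples by Pearson's correlation of log2(FPKM + 1) among 13659 protein-coding genes, as a description. The samples fall into 4 groups and share libraries, so high values arise from group means alone. Bdnf was nearest to Kpnb1, P2ry2 and Cavin1 (all r = 0.995), and Gdnf to Vgll3 (0.997), Actn4 (0.996) and Zbtb7c (0.994). Lif was nearest to Diaph3 (0.998), Lrp2 (0.995) and Rock2 (0.994). The receptor Ngfr was nearest to Ncapg (0.985), Spc25 (0.983) and BC055324 (0.981). Ntf3, whose order of groups differed, reached 0.93 with Pcolce, 0.927 with Rln1 and 0.909 with Bex3. Among the receptors that rose, Ntrk2 was nearest to Rbl2 (0.996), Itpkb (0.992) and Gpr34 (0.992), Ntrk3 to Islr2 (0.998), Cttnbp2 (0.997) and Vtn (0.996), and Gfra1 to Kctd12b (0.972), 2610507B11Rik (0.964) and Iqcg (0.963).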

How the data were processed

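RNA of 12 samples was sequenced from NEBNext Ultra libraries as paired-end reads. The authors deposited 1 table of FPKM, in which each value is corrected for gene length and for a library size that includes a scaling between samples. The unit was read from the values, since FPKM multiplied by gene length was a whole multiple of 1 step per sample for 100% of values within a tolerance of 0.01 fragments, which also gave the fragments per gene. The submitters' processing notes name Bowtie 0.12.2 and mm8, but of 55154 identifiers also in GENCODE M21, 54899 had its GRCm38 position. The counting tool is not given in the sources used here.

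Groups were compared 2 at a time in 6 comparisons with limma 3.58.1 in R 4.3.3 (lmFit, eBayes with trend) on log2(FPKM + 1), with Benjamini-Hochberg adjustment over all genes tested. The pseudocount was 1 FPKM and the filter a mean of 1 FPKM in at least 1 group. Recovered fragments were tested with limma-voom over genes with at least 10 fragments in at least 3 samples. The other alternatives were upper-quartile scaling, library size alone, no filter, a pseudocount of 0.1, a model of all 4 groups, a block for the replicate number, leaving out each sample and, chosen after seeing the data, leaving out AST replicate 2 and A-iSC replicate 3 together. Python 3.11.15 with numpy 2.4.6, pandas 2.3.3 and matplotlib 3.10.9 was used for the other steps.

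All 9 members are named, and of 43 further genes of the pathways those that partner a member directly, plus the 3 that rose and the 3 that fell most from ASTs to A-iSCs among those called, and for 8 members the 3 genes with the most similar pattern. A few genes that this rule names are counted in the totals but not reported here by name. The members and lists, 10 marker lists included, were chosen with earlier results of these data known. No sample was left out.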

Additional observations from a re-analysis of the deposited data

How the results depend on the processing

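The 39 tests of members gave 511 values under the alternatives, of which 489 kept the direction and the side of the threshold, 14 were no longer called, 6 became called and 2 changed sign. The values that changed sign were Gfra1 in P0-NPCs over ASTs with library size alone (0.074, limma adjusted p = 0.689) and Gfra1 in A-iSCs over P56-NPCs without A-iSC replicate 3 (-0.27, adjusted p = 0.0581, with 0.37 as the highest value on leaving out a sample), neither called before or after. Leaving out each sample in turn gave 6 to 7 members called for A-iSCs over ASTs, 8 for P56-NPCs over ASTs, 5 to 6 for P0-NPCs over ASTs, 2 to 4 for A-iSCs over P56-NPCs, 5 to 6 for A-iSCs over P0-NPCs and 4 for P0-NPCs over P56-NPCs. Over all genes tested, the share called on leaving out a sample was 43.2 to 63.1%, 73.4 to 82.7%, 74.4 to 81.3%, 50.3 to 74.0%, 56.4 to 75.3% and 73.6 to 77.0% in the same order. The count of 2 arose without P56-NPC replicate 1 and without A-iSC replicate 2. The cause of these changes was not tested. Without AST replicate 2 and A-iSC replicate 3 together, 7 members were called for A-iSCs over ASTs, beside 73.0% of all genes tested.

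With a replicate block in the fit, the direction and side of the threshold were kept in all member tests except Ntf3 in P0-NPCs over ASTs, which was then called (-0.41, limma adjusted p = 0.0173), as it was with all 4 groups in the model (adjusted p = 0.0357). The block gave 3694 higher and 4250 lower genes for A-iSCs over ASTs, beside 3550 and 4165 without it. Same-numbered samples of ASTs and A-iSCs had residual correlations of -0.41, 0.35 and 0.45 across genes, and at most 1 of 3 pairs exceeded 0.1 in any other comparison, so the number was not taken to pair the samples.

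Depth limits Cntf, Ntf3 in A-iSCs and the ligands in NPCs, where few fragments were counted. Groups of 3 samples were too small for the test of single outlying samples.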
